A study of Mus musculus with 6 samples.

Results

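Prdm2, Foxn2, Spg11, Pdpr, Abca2, Ahdc1, Phlpp1, Bcl9l and Rras are 9 genes that were read in 5 of 6 mouse liver libraries and were almost without reads in the remaining library. From the lowest to the highest of those 5 libraries the genes spanned 1.30-fold to 2.58-fold. They are 9 of the 55802 gene symbols in the deposited count files, and each symbol stands on a single row. The genes were selected on their raw counts in these 6 libraries, so the near-zero values and their size are a description, and no test was made on them. The data are poly(A)-selected RNA sequencing libraries of the liver of C57BL/6 males kept over 71 weeks. Control mice (3 libraries) had normal chow, and PS-MP mice (3 libraries) had chow with polystyrene microplastic, so diet is the stated difference between the groups. Particle size and dose are not stated in the labels. The labels do not say that replicates are separate animals, so p-values measure the spread between these libraries.

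The 9 genes share no pathway. Prdm2, Foxn2, Ahdc1 and Bcl9l encode nuclear proteins that act on chromatin or transcription, Phlpp1 and Rras encode signalling proteins, Spg11 and Abca2 act at endosomes and lysosomes, and Pdpr acts on pyruvate dehydrogenase in mitochondria. All are expressed in many tissues. A read count per gene is the number of reads that a counting program credits to that gene, so a count table does not separate the level of the RNA from how reads were credited. In bulk tissue, fewer cells of a type and less RNA per cell cannot be told apart either.

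Library totals ranged from 68357478 to 112566641 counts. Levels below are CPM, counts brought to a common library total with the TMM method, and they are not divided by gene length. The liver label was met by hepatocyte markers, whose summed level was 59330 to 76658 CPM on normal chow and 65848 to 83342 CPM on PS-MP chow (6 of 7 listed markers used), against 11.2 to 26.5 CPM for 5 cholangiocyte markers over all libraries. Of 17 reference genes in wide use, such as Actb, Gapdh and Tbp, 0 were low in 1 library by an 8-fold gap. Among 11667 genes with at least 1 CPM in the second-lowest library 0.669% were, so a list of 17 says little. The largest ratio of the second-lowest to the lowest library among the 17 was 2.09. Reads of 18S ribosomal RNA made up 1.15% to 11.2% of the counts of control libraries and 0.387% to 1.14% of those of PS-MP libraries. Control replicate 2, with the 11.2%, is the low library of Bcl9l and Rras, and the part of ribosomal reads in those values was not tested.

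Among the nuclear factors, Prdm2, a zinc finger protein of the PR domain family that methylates histone H3, had 1511, 650 and 1328 counts on normal chow and 1740, 1 and 1221 counts on PS-MP chow. PS-MP replicate 2 alone was low, at 0.0113 CPM where the other libraries lay between 10.7 and 21.1 CPM. At the median level of the others, 14.3 CPM, a library of that depth would have held 1259 counts. Foxn2, a forkhead transcription factor, had 629, 861 and 1120 counts on normal chow and 6, 1109 and 816 counts on PS-MP chow. Its low library was PS-MP replicate 1, at 0.0728 CPM against 8.66 to 14.1 CPM elsewhere.

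Ahdc1, which encodes an AT-hook protein and is mutated in Xia-Gibbs syndrome, had 484, 455 and 11 counts on normal chow and 656, 463 and 1148 counts on PS-MP chow. Here control replicate 3, the deepest library, was the low one, with 0.104 CPM against a median of 7.47 CPM in the others. Bcl9l, a coactivator that binds beta-catenin in Wnt signalling, had 1022, 4 and 2049 counts on normal chow and 1830, 2299 and 3105 counts on PS-MP chow. Control replicate 2 stood at 0.0657 CPM and the other 5 libraries at 14.1 to 36.2 CPM. Bcl9l was the only one of the 9 whose diets did not overlap when all 6 libraries were used, with every PS-MP library above every control library, which was also the case in one direction or the other for 11.2% of all genes tested.

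Of the signalling genes, Phlpp1, a phosphatase that removes an activating phosphate from the kinase AKT, had 1432, 920 and 1773 counts on normal chow and 1601, 75 and 1655 counts on PS-MP chow. PS-MP replicate 2 was low at 0.849 CPM, the highest low value of the 9 genes, against 15.1 to 19.7 CPM. Rras, a small GTPase of the Ras family with a role in cell adhesion and blood vessels, had 1542, 23 and 1174 counts on normal chow and 1851, 1805 and 1301 counts on PS-MP chow. Control replicate 2 was low at 0.378 CPM, and the others held 11.1 to 22.5 CPM.

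Of the genes of endosomes and lysosomes, Spg11, whose product spatacsin helps lysosomes form anew after autophagy, had 794, 562 and 966 counts on normal chow and 15, 975 and 729 counts on PS-MP chow. PS-MP replicate 1, which was also low for Foxn2, had 0.182 CPM where the rest had 8.51 to 11.04 CPM. Abca2, an ABC transporter that moves lipids in endolysosomes, had 23, 1608 and 2935 counts on normal chow and 1705, 1421 and 2068 counts on PS-MP chow. Control replicate 1 was low at 0.317 CPM against 16.1 to 27.7 CPM. The mitochondrial gene Pdpr, the regulatory subunit of the phosphatase that switches pyruvate dehydrogenase on, had 6, 1305 and 2594 counts on normal chow and 2008, 1252 and 1601 counts on PS-MP chow. It too was low in control replicate 1, with 0.0826 CPM against 14.2 to 24.5 CPM.

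**Figure D1:**
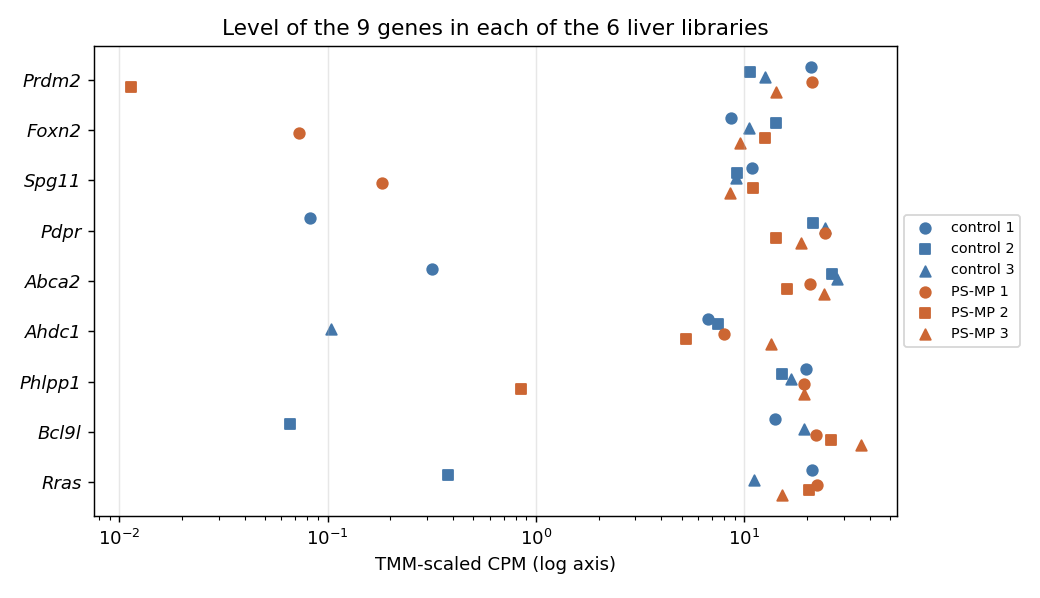
Level of each of the 9 genes (rows) as TMM-scaled CPM on a log axis, with 1 point per library (blue control, orange PS-MP, shape by replicate number). In each row 1 point lies between 0.0113 and 0.849 CPM and the other 5 lie between 5.24 and 36.2 CPM.

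The low library was a control for 5 genes (Pdpr and Abca2 in replicate 1, Bcl9l and Rras in replicate 2, Ahdc1 in replicate 3) and a PS-MP library for 4 (Foxn2 and Spg11 in replicate 1, Prdm2 and Phlpp1 in replicate 2). PS-MP replicate 3 was low for none of the 9. The low library held 1 to 75 counts, between 0.0794% and 4.40% of the median level of the other 5. As the ratio of the second-lowest to the lowest library, the gap was 943-fold for Prdm2 (95% exact counting interval 169 to 37287, from a single read), 214-fold for Bcl9l (83.4 to 788) and 172-fold for Pdpr (78.6 to 468). It was smallest for Rras, 29.4-fold (19.5 to 46.5), and Phlpp1, 17.8-fold (14.05 to 22.8). These intervals cover counting error only.

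Outside the low library the spread of 7 of the 9 genes was at or below the 90th percentile of the genes compared, and that of 2 at or below the median. From the lowest to the highest of the other 5 libraries, Spg11 spanned 1.30-fold and Phlpp1 1.31-fold, both below the median of 1.41-fold over the 11667 genes whose second-lowest library held at least 1 CPM. Foxn2, Abca2, Pdpr and Prdm2 spanned 1.63-fold, 1.72-fold, 1.73-fold and 1.98-fold, and Rras 2.02-fold. The widest were Ahdc1 at 2.56-fold and Bcl9l at 2.58-fold, past the 90th percentile of all these genes, 2.36-fold.

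To place the 9 genes in the whole table, every gene was asked whether its lowest library lay 16-fold or more below its second-lowest one, with the second-lowest at 1 CPM or more and counts under 3 set to 3. This was so for 42 of 11667 genes (0.36%), and the 9 genes are among them because of how they were chosen. Over all 11667 genes the median ratio was 1.11 and the 99th percentile 4.65. Phlpp1 lay just inside the limit at 17.8, and the chromatin gene Baz2a just outside at 15.8. With scaling by library size alone the gap of Phlpp1 was 14.2-fold, below the limit. With a limit of 8-fold 78 genes met it, and with at least 5 CPM in the second-lowest library 18 of 8018 genes did, 9 of them the genes described here.

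**Figure D2:**
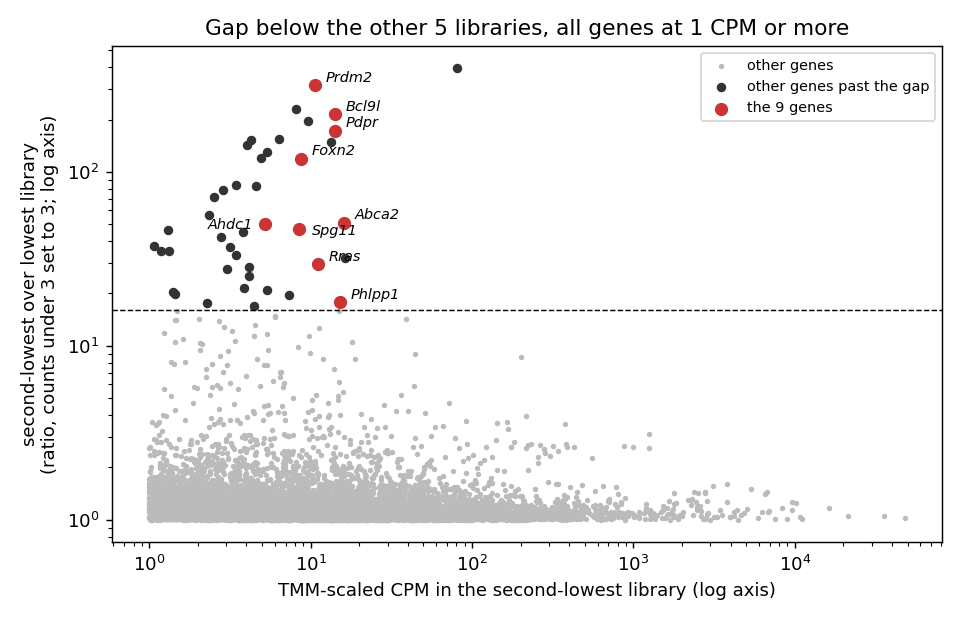
Ratio of the second-lowest to the lowest library against the CPM of the second-lowest library for 11667 genes, both on log axes, with counts under 3 set to 3 (which lowers the point of Prdm2 only among the 9). The dashed line is the 16-fold limit, and the 42 genes above it lie, with the exception of mt-Nd4, below 20 CPM.

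The other 9 genes of that stricter set, named after their values were seen, are as varied in role. Tshz1, a zinc finger transcription factor, had 8 counts on PS-MP chow replicate 2 and 971 to 1819 elsewhere. Tasor, a subunit of the HUSH silencing complex, had 2 counts in control replicate 1 and 524 to 2719 elsewhere. Scd3, a stearoyl-CoA desaturase, had 0 counts on PS-MP chow replicate 3 and 578 to 2750 elsewhere. Whether it shares reads with related genes was not tested. The mitochondrially encoded mt-Nd4 had 17 counts on PS-MP chow replicate 1 and 7164 to 67595 elsewhere. Map3k2, Znfx1, Il1r1, Gm20716 and 5830417I10Rik complete the set, with 0 to 44 counts in their low library.

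Single-library gaps were found at modest read levels. They made up 0.658% of 3649 genes at 1 to 5 CPM in the second-lowest library, 0.401% of 4235 genes at 5 to 20 CPM and 0.0354% of 2822 genes at 20 to 100 CPM (mt-Nd4), and 0 of 961 genes at 100 CPM or more. For the 9 genes the counting intervals of the gap all started at 14.05-fold or higher. The low library was control replicate 1, 2 or 3 for 10, 6 and 11 genes and each PS-MP library for 5 genes. With the 8-fold limit the control libraries had 15, 11 and 18 such genes and the PS-MP libraries 7, 13 and 14. The groups thus overlapped at 8-fold and did not at 16-fold, and the difference between them was not tested.

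The genes next to the 9 genes that were read at 1 CPM or more were not near zero in the low libraries. The GENCODE M21 annotation, which is of the earlier build GRCm38, was used to find which genes overlap or adjoin the 9 genes, and for transcripts, but not for coordinates. Of 28 such genes, 13 had a median of at least 1 CPM in the other 5 libraries. Prdm2 had none among them, since its next protein-coding genes, Kazn and Pdpn, had medians of 0.331 and 0.292 CPM and the genes in its introns lay lower. In the low library of the gene they adjoin, these 13 stood at 0.715 to 1.45 times the median of the other 5 libraries (median 0.976). Of the 13, 11 lay within the range of those libraries, a share that was not computed over all genes. Eif3j1, a translation initiation factor gene that overlaps an exon of Spg11 on the opposite strand, had 37.8 CPM in PS-MP replicate 1 and 33.3 to 58.2 CPM elsewhere. Ddx6, an RNA helicase gene next to Bcl9l, had 63.8 CPM in control replicate 2 and up to 59.3 CPM elsewhere. Cxcr5, a chemokine receptor gene that overlaps an exon of Bcl9l on the opposite strand, was too low to be among the 13 and stood highest in control replicate 2, at 1.12 CPM (68 counts) against a median of 0.522 CPM (41 to 69 counts) elsewhere. Gm47205, which also overlaps an exon of Bcl9l on the opposite strand, went the other way. It stood lowest in that library, at 0.164 CPM (10 counts) against a median of 0.303 CPM (18 to 41 counts) elsewhere. Bcl9l would have held 1353 counts in that library at its median level in the others. Whether any of its reads were credited to a gene that overlaps it was not tested.

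Shared sequence was sparse. In the longest GENCODE M21 transcript of each gene, stretches of 75 bases that also occur in transcripts of another gene, on either strand, made up 0% for Abca2, Ahdc1, Phlpp1 and Rras, and 0.249% for Prdm2, 0.37% for Pdpr, 0.538% for Bcl9l and 0.698% for Foxn2. Spg11 was the exception at 13.1%, with 745 of its 999 shared stretches found in transcripts of Eif3j1. Gm3650 and Eif3j2 also held stretches of Spg11. Gm3650 had 170, 0 and 0 counts on normal chow and 9, 183 and 198 counts on PS-MP chow. It was thus low in PS-MP replicate 1, as Spg11 was, and in control replicates 2 and 3, where Spg11 was read. A link between the counts of these genes was not tested. No read length is stated in the labels. The 9 genes have 3 to 11 annotated transcripts (median 4), where the median over the genes found in the annotation was 5, and 3 for the 40 of the 42 genes that were found there.

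Relatives and partners of the 9 genes, 69 on lists of named proteins that share a family, complex or pathway with them, were not low where the gene itself was. Of these, 66 were tested, and in the library where its gene was low every one stood at 0.670 times the median of the other 5 libraries or more (median 1.11). None of the 66 had a single-library gap of 8-fold, where 0.669% of 11667 genes did, so a list of this length says little on that point. Between diets 0 of 66 passed in edgeR and 7 had an unadjusted p under 0.05, beside 0.0113% and 5.38% of all genes. Their median log2 fold change was -0.02 (32 above zero, 34 below), and that of all genes tested was 0.02.

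The lists follow the roles of the genes. For Prdm2, the histone H3 lysine methyltransferase genes Setdb1, Ehmt1, Ehmt2, Suv39h1 and Suv39h2 stood at 1.02, 1.07, 1.14, 1.28 and 1.31 times their median level in PS-MP replicate 2, and Prdm1, a PR domain factor, at 2.84 times from a low level of 0.275 CPM. For Spg11, its partner Zfyve26 stood at 1.11 times in PS-MP replicate 1, and the 4 genes of the AP-5 complex on the list at 0.886 to 1.25 times. For Pdpr, the catalytic phosphatase genes Pdp1 and Pdp2 stood at 1.63 and 1.20 times in control replicate 1, and Pdha1, a subunit of pyruvate dehydrogenase itself, at 1.16 times. For Bcl9l, its paralogue Bcl9 stood at 0.860 times in control replicate 2 and Ctnnb1, the gene of beta-catenin, at 1.06 times. For Phlpp1, Phlpp2 stood at 1.08 times and Akt2 at 0.908 times in PS-MP replicate 2. For Rras, Rras2 stood at 1.01 times in control replicate 2, for Abca2, Abca1 stood at 0.723 times in control replicate 1, and for Ahdc1, the AT-hook gene Setbp1 stood at 1.13 times in control replicate 3.

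**Figure D3:**
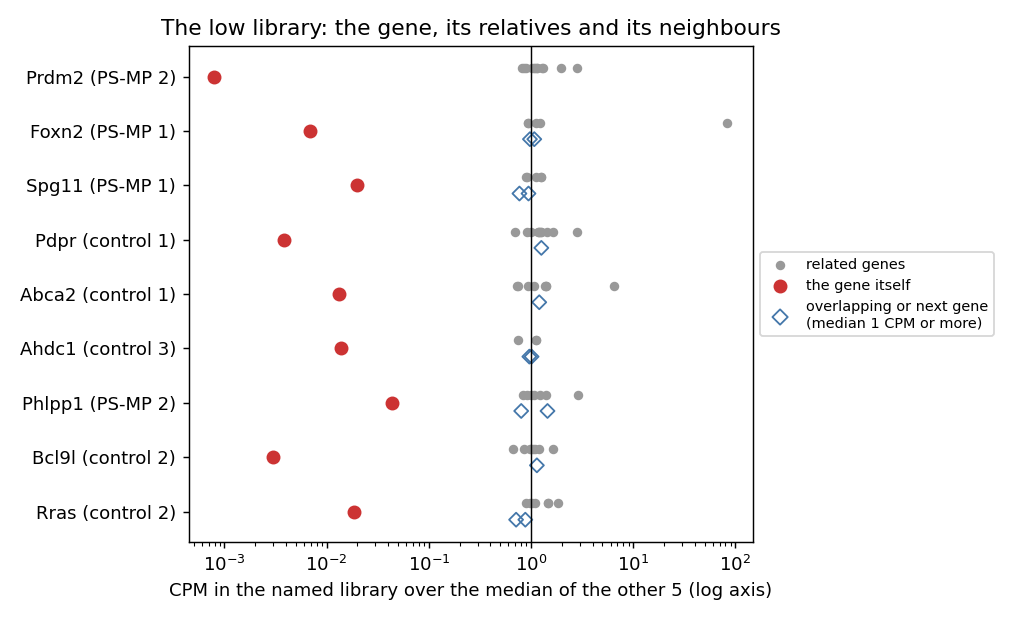
Level in the low library of each gene (named in brackets) over the median of the other 5 libraries, on a log axis, for the gene itself (red), its tested relatives and partners (grey) and its overlapping or adjoining genes with a median of at least 1 CPM (blue diamonds). The red points lie at or below 4.40% of the median; the grey point far to the right is Foxn3.

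Foxn3, the forkhead gene listed first beside Foxn2, was itself all-or-none but not in a single library. It had 39, 2159 and 26 counts on normal chow and 3107, 21 and 39 counts on PS-MP chow. Control replicate 2 (35.4 CPM) and PS-MP replicate 1 (37.7 CPM) were high and the other 4 libraries held 0.238 to 0.537 CPM. PS-MP replicate 1, where Foxn2 was near zero, thus held 82.8 times the median Foxn3 level of the other libraries, while in control replicate 2 both genes were read. With 1 high library in each diet, the log2 fold change of Foxn3 was 0.09 with a 95% interval from -5.22 to 5.40 (SE 2.22, edgeR adjusted p = 0.9998). Abca6, a relative of Abca2, was high in control replicate 1 (41.8 CPM) and PS-MP replicate 3 (40.9 CPM) and held 3.13 to 10.4 CPM in the others.

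The genes most like each of the 9 across the 6 libraries were found by Pearson's r of log2 CPM among named genes tested. With 1 low library, r mainly says that another gene had its lowest value there. Prdm2 and Phlpp1 were each other's closest gene (r = 0.999), with Cmtm8 and the ribosomal protein gene Rpl18 next for both. Rpl18 held 5848 counts on PS-MP chow replicate 2 against 10617 to 18878 elsewhere, so a far smaller dip gave r of 0.994 and 0.997. Cmtm8 dipped further, to 437 counts in that library against 2695 to 5270 elsewhere. Foxn2 and Spg11 were close to each other (r = 0.993), as were Pdpr and Abca2 (r = 0.997). Closest to Ahdc1 was Lztr1 (r = 0.997), to Bcl9l Pde2a (r = 0.997) and to Rras Fhod3 (r = 0.994). These values rest on 6 libraries and on 1 of them for the most part, and they carry no test.

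The diet contrast of the 9 genes was computed with and without the low library. With edgeR's quasi-likelihood test on all 6 libraries, 0 of 9 passed over all genes (0.0113% of 17662 genes did) and 0 of 9 had an unadjusted p under 0.05, with unadjusted p from 0.328 to 0.892. Because the counts chose the genes, these p-values describe the fit and support nothing. The standard errors of their log2 fold changes were 0.91 to 1.42, and every 95% interval held zero and reached past a 2-fold change in both directions. The biological coefficient of variation, edgeR's measure of spread between libraries of a group, was 0.751 to 1.20 for the 9 genes and 0.302 at the median of all genes. It lay above the 95th percentile, 0.775, for 8 of the 9, which follows from their choice by 1 near-zero library.

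The low library of each gene was then left out and all genes were fitted anew. The library left out is the one that the choice of genes rests on, so narrower intervals and a shift of the fold change toward higher values in the diet of that library follow from the choice, and the p-values of these fits support nothing either. Standard errors were 0.17 to 0.42 and the coefficient of variation was 0.221 to 0.373. The log2 fold change of Prdm2 was -0.32 with all libraries and 0.27 without PS-MP replicate 2. That of Pdpr was 0.31 and -0.27 without control replicate 1, and that of Abca2 0.16 and -0.41. For Spg11 it was -0.57 with all libraries and 0.00 without PS-MP replicate 1 (95% interval -0.52 to 0.53), and for Foxn2 -0.59 and -0.01 (-0.70 to 0.67). Of the 9 signs 5 changed, which describes the size of that shift and not a response to diet.

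Phlpp1 stood at -0.38 with all libraries and 0.18 without PS-MP replicate 2 (-0.26 to 0.61). Ahdc1 had 0.91 and 0.33, and Rras 0.83 and 0.26. Bcl9l kept the same sign, at 1.33 with all libraries and 0.75 without control replicate 2 (95% interval 0.07 to 1.43, adjusted p = 0.526 in edgeR). In these fits 0 of 9 genes passed, and 1 of 9 had an unadjusted p under 0.05. For Bcl9l the 2 remaining control libraries, 14.1 and 19.4 CPM, lay below all PS-MP libraries, 22.2, 26.0 and 36.2 CPM, and 29.2% of all genes had diets that did not overlap with control replicate 2 out. For Abca2 the 2 remaining control libraries, 26.4 and 27.7 CPM, lay above all PS-MP libraries, 20.7, 16.1 and 24.1 CPM, where 19.6% of all genes did not overlap with control replicate 1 out.

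**Figure D4:**
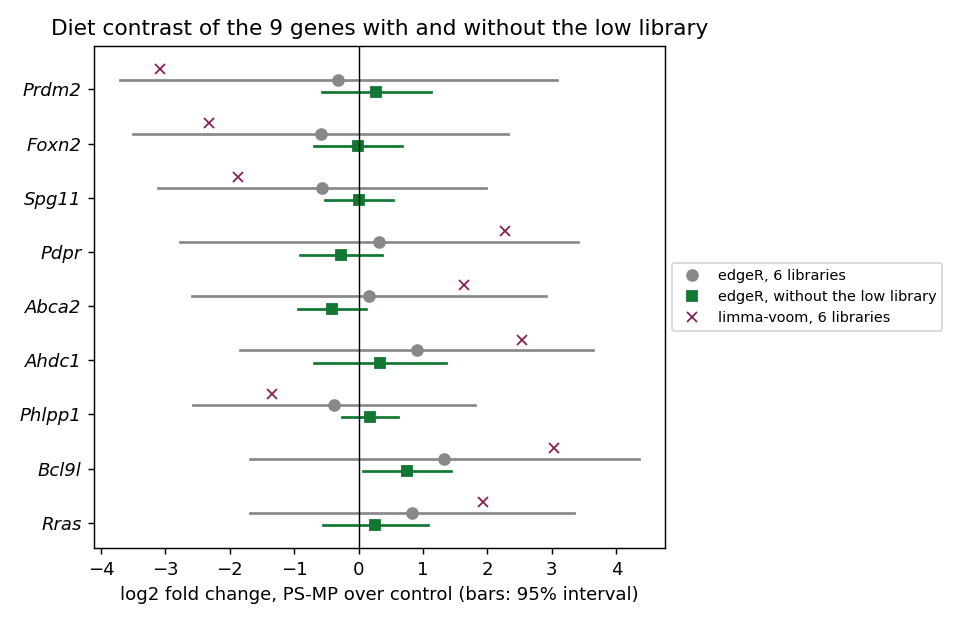
Log2 fold change of PS-MP over control for each gene in edgeR with all 6 libraries (grey circles), in edgeR without the gene's low library (green squares), both with 95% intervals, and in limma-voom with all 6 libraries (crosses, no interval drawn). Grey intervals all cross zero; green intervals are narrower, as the removal of the library that chose the gene makes them.

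The size of the shift was nearly the same for all 9 genes in edgeR, 0.56 to 0.59 on the log2 scale, close to the 0.58 that results when 1 of 3 equal values is set to zero and the mean becomes 2 of 3 parts. Estimates that average logs moved further. In limma-voom the log2 fold change was -3.09 for Prdm2, 3.03 for Bcl9l, 2.54 for Ahdc1, -2.32 for Foxn2 and 2.27 for Pdpr, and 1.34 to 1.93 in size for the other 4 genes. Leaving out the low library moved these values by 1.52 to 3.39. In limma-voom 0 of 9 passed (0.00566% of all genes did), with adjusted p of 0.819 to 0.908. DESeq2, which withholds the p-value of a gene with an extreme count, did so for 52 of 17662 genes (0.294%) and for 0 of the 9, whose DESeq2 p lay between 0.377 and 0.907.

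The same gap was then looked for between the diets as a whole. Gaps of 16-fold left 1 library low for 42 genes, 2 libraries for 21, 3 for 10, 4 for 11 and 5 for 23, the last being genes high in 1 library only. Of the 10 genes with 3 low libraries, 2 had all control libraries low and all PS-MP libraries high, 0 the reverse, and 8 had low libraries of both diets. Examples of the 8, named after their values were seen, are Usp50, with 563, 2 and 843 counts on normal chow and 542, 6 and 13 counts on PS-MP chow, and Tns3, with 11, 441 and 1447 counts on normal chow and 990, 2 and 10 counts on PS-MP chow.

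The 2 genes split by diet were Dennd5b, a regulator of Rab proteins with 66, 125 and 96 counts on normal chow and 7082, 8134 and 5054 counts on PS-MP chow, and the processed pseudogene Gm5526, with 1, 1 and 1 counts and 186, 192 and 212 counts. They are 0.016% of 12493 genes that could show such a gap, and they are the 2 genes that edgeR called (adjusted p = 0.0365 and 0.00353). Their coefficients of variation were 0.324 and 0.312, near the median of all genes, where those of the 9 genes with a single low library were higher. A near-zero library within a diet raises this measure and a gap between the diets does not, so the difference follows from how the genes were chosen. What lies behind the gaps of either kind was not tested. Among genes that DESeq2 called (187, 1.06% of those with a p), 0 had a single-library gap, against 42 (0.238%) of all genes tested, a share that is under 1 gene in 187, and 5 (2.67%) had a 16-fold gap between libraries of one diet, against 0.929% of all genes tested. Of the 52 genes with no p in DESeq2, 26 had a gap within a diet.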

How the data were processed

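The members and gene lists were chosen with earlier results of these data known. The authors deposited whole-number read counts per gene; per the submitters' processing notes bcl2fastq and the build GRCm39 were used, while aligner, counting program, annotation and strand setting are not stated there. Without the strand setting, it is unknown whether the counts separate a gene from one that overlaps it on the other strand. The table of the whole series held the same counts as the 6 single files. Counts of 67 symbols listed more than once were summed (R 4.3.3). After filterByExpr, 17662 genes were tested with edgeR 4.0.16 (TMM, quasi-likelihood F test, diet as the one term, Benjamini-Hochberg over all genes, threshold 0.05); intervals are 95%. DESeq2 1.42.0, limma-voom (limma 3.58.1), other scalings and filters, a replicate block and each library left out were alternatives. Scripts were tested on simulated data. Named genes were the 9 members, the first measured relative of each and relatives with a gap, the 3 closest genes by r (prior count 2), adjoining or overlapping genes, and genes split by diet; not all are printed. Any other gene named, including further relatives given as examples, was chosen after its values were seen. No coordinates or sequences are printed, since the annotation used is of another build.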

Additional observations from a re-analysis of the deposited data

How the results depend on the processing

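The number of genes called between diets, 2 in edgeR, was 187 with DESeq2, 1 with limma-voom, and 0 to 4 when a library was left out (4 with control replicate 2 out, 0 with control replicate 3 out, 1 with PS-MP replicate 1 or 3 out). The labels do not say whether replicate numbers pair the libraries. Deviations from the diet means correlated weakly, at 0.108, 0.139 and -0.128 for numbers 1, 2 and 3. Control replicates 1 and 2 correlated best with their own number, and control replicate 3 with PS-MP replicate 1 (0.097), so these values do not settle it. With the replicate number as a block 0 genes were called. Without the 42 genes low in 1 library 2 genes were called. The number of genes low in 1 library, 42, was 78 at 8-fold, 18 with a minimum of 5 CPM, and 45 to 57 when a library was left out, where the rule ran on 5 libraries. The number split by diet, 2, was 1 at 32-fold, 1 with a minimum of 5 CPM, and 3 to 8 when a library was left out (8 with control replicate 2 out, 6 with PS-MP replicate 3 out, and 4 with control replicate 1, control replicate 3 or PS-MP replicate 1 out), where fewer libraries had to fall on each side.

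The fold changes of the 9 genes passed the threshold in 0 of 135 alternatives and changed sign in 6, all with a library left out. Over the left-out libraries log2 fold changes ranged from -1.02 to 0.27 for Prdm2, -1.15 to 0.00093 for Spg11, -0.27 to 0.83 for Pdpr, -0.41 to 0.61 for Abca2 and -0.77 to 0.18 for Phlpp1; in Prdm2 the sign also changed without control replicate 1 (0.02). Scaling by library size alone moved the median log2 fold change of all genes from 0.02 to 0.23 and changed the sign of 0 of the 9. Where a low library holds 0 counts the depth allows up to 3, so the gap of such a gene is a lower bound.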
